A study of Mus musculus with 8 samples.

Results

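Molecular chaperones bind proteins that have lost or not yet reached their shape, help them fold, and hand over those that cannot. Of 10 mouse heat shock and chaperone genes listed by name, 9 (Hspb1, Hspa5, Hspa8, Hsp90aa1, Dnajb1, Dnaja1, Hsph1, Chordc1 and Hspd1) had a probe set that the platform annotation pairs with that gene alone, and for a gene with several of these the one with the highest mean over the arrays was taken. For Hsp90ab1 none was found in that annotation, and the gene was not analysed here. The 9 are described among 16026 genes tested, on 8 whole-transcript arrays of tissue that the labels call cervical spinal cord, 2 arrays for each of 4 groups of adult male C57BL/6 mice aged 6 weeks. Control mice were given saline for 4 weeks. Mice of the MPTP group were given the neurotoxin MPTP-HCl, which destroys dopaminergic neurons and serves to model parkinsonism, at 20 mg/kg every 24 h for those 4 weeks. The acupoint group had the same MPTP and was needled by hand, bilaterally at GB34 (3 mm deep) and LR3 (1 mm deep), in 14 sessions 48 h apart, 2 h after the toxin. The non-acupoint group, called hip below, had the same MPTP and schedule with needles placed 3 mm deep at both hips. All needled mice received MPTP, so needling alone was not measured. The title of each sample names a numbered mouse, and the labels record 9 mice for the control group and 9 for the MPTP group. Whether RNA of several mice was pooled for an array is not stated. The p-values describe the spread among these samples only, which could be technical if it was.

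These genes act in linked steps. Small heat shock proteins (Hspb1) hold unfolding proteins without ATP. J-domain proteins (Dnajb1, Dnaja1) deliver clients to HSP70 proteins, which are Hspa8 in the cytosol and Hspa5 in the endoplasmic reticulum (ER), and HSP110 (Hsph1) exchanges their nucleotide. HSP90 (Hsp90aa1) finishes kinases and steroid receptors with co-chaperones such as Chordc1, and Hspd1 folds proteins inside mitochondria. Many cytosolic members are induced by the transcription factor HSF1 through heat shock elements, repeats of GAA and its complement TTC, while Hspa5 is a standard target of the unfolded protein response of the ER through the ER stress element.

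Promoter stretches of 5 members are shown because they hold these elements, so that the genes compared below can be read beside the sequence through which such genes are known to be induced. All are RefSeq sequences of build GRCm38.p6, from 150 bases before the annotated start to base 30 of the transcript, 5′ to 3′ on the strand of the gene, with the matches in capitals. Hspb1 lies at chr5:135887769-135887948, Hspa5 at chr2:34771940-34772119 and Chordc1 at chr9:18292117-18292296 on the plus strand, and Hspd1 at chr1:55087903-55088082 and Hsph1 at chr5:149636286-149636465 on the minus strand, each of these last at the second of 2 annotated starts.
Hspb1: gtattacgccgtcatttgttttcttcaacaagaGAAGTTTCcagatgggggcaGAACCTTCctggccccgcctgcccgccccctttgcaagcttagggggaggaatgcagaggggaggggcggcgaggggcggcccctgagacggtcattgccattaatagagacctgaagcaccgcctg
Hspa5: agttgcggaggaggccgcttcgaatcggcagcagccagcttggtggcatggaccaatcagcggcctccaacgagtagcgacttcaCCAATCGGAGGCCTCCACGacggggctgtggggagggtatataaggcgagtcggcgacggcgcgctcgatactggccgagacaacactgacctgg
Chordc1: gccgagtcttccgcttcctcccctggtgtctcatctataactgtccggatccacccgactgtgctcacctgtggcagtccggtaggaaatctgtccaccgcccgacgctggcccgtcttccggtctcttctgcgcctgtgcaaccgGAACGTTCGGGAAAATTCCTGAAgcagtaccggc
Hspd1: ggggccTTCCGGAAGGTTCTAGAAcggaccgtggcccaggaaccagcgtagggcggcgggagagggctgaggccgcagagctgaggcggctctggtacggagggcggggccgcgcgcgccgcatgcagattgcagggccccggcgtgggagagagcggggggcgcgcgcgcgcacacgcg
Hsph1: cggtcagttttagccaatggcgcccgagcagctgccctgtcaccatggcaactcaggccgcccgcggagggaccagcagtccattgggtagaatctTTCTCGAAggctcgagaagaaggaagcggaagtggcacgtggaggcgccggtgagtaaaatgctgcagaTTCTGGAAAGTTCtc
Capitals mark the paired heat shock element (GAANNTTC or TTCNNGAA), the 3-unit heat shock element, which extends a paired one by NN and a further GAA or TTC in alternation and so contains paired ones, and the ER stress element (its CCAAT box and CCACG ends with NNNNNNNNN between them), searched on both strands. Hspb1 had paired elements 117 to 110 and 97 to 90 bases before its start. Hspa5 had the ER stress element 65 to 47 bases before its start and no heat shock element. In Hspd1 overlapping 3-unit elements lay 144 to 127 bases before the start. In Chordc1 they ran from 4 bases before the start base to 18 bases past it, and in Hsph1 one lay 15 to 27 bases past the start base. RefSeq promoter windows of 300 bases were matched for 7 of the 10 listed genes (12 windows), and Hspa8, Hsp90aa1 and Hsp90ab1 are named only. A 3-unit element was present in 3 of the 7 genes and in 0.662% of all 27025 genes with windows, a paired one in 5 of 7 and 17.0%, and the ER stress element in 1 of 7 and 0.137%. Dnaja1 had a paired element alone, as Hspb1 did, but is not shown, and these letters were not in the windows of Dnajb1. The window at the first annotated start of Hspd1 held none of them. By window, 4 of the 12 held a 3-unit element (0.603% of all windows), 6 a paired one (15.1%) and 1 the ER stress element (0.119%). A match describes letters and not a bound site.

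Several features of the arrays bear on the values that follow. The mean of 15 skeletal muscle markers was 7.48 and 8.94 in the control samples and 6.99 in acupoint replicate 1, compared with 5.56 to 5.94 in the other 5 samples. After MPTP 11 of 15 were called lower, beside 3.1% of all genes. Many markers of cord cells went the other way. Astrocyte markers had means of 9.95 to 10.08 in control and 10.51 to 10.62 in treated samples. After MPTP 10 of 10 of them were called higher, beside 13.7% of all genes. So were 6 of 10 motor neuron, 6 of 10 pan-neuronal, 6 of 9 microglial, 3 of 9 oligodendrocyte and 1 of 7 endothelial markers. The rise was not uniform: neuronal Rbfox3 (-0.12), microglial Tmem119 (-0.23) and oligodendrocyte Opalin (-0.43) were lower and not called. These were chosen after their values were seen. Schwann cell and peripheral nerve markers had means of 7.98 in control replicate 1 and 7.82 in acupoint replicate 1, against 6.18 to 7.18 in the others. Meningeal fibroblast markers had means of 8.47 and 8.59 in the same samples, against 6.82 to 7.93 in the others. Erythroid markers (4 measured) had means of 6.87 and 6.94 in control, 6.89 and 7.29 in acupoint and 7.51 to 7.86 in MPTP and hip samples. After MPTP 1 of these 4, Alas2, was called higher (log2 2.45). Pan-neuronal means of 10.34 to 10.63 and Hox means of 7.10 to 7.40 were found in every sample, as in cord tissue. Of 10 Hox genes 1, Hoxd4, was called lower after MPTP (-0.83). Alas2 and Hoxd4 were also chosen after their values were seen. Fewer cells of a type and less RNA per cell cannot be told apart in bulk tissue, and the part of these shifts in the chaperone values was not tested. The signal distribution of the arrays also moved with the groups. The SD over all probe sets was 2.35 in both control samples and 2.43 to 2.50 in treated ones, and probe sets without a gene symbol had a median of 4.75 in both control samples and 4.25 to 4.39 in treated ones. The part of this in the results was not tested. Bright genes as a class were also higher after MPTP. Among genes whose mean signal lay within 0.25 log2 units of a member (18 to 1547 genes, other members left out) the median difference was 0.15 to 0.24, against 0.061 over all genes. These genes of like signal are therefore set beside each member in comparisons with control.

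Most of the 9 chaperone genes were called higher in the spinal cord after MPTP than after saline, and all 9 had passed the filter on low signal. All 9 members were higher in both MPTP samples than in both control samples, as were 41.9% of all genes, and 7 of 9 passed upward (limma, Benjamini-Hochberg adjusted p under 0.05), where 13.7% of all genes did, and 0 downward, where 3.1% did. Their log2 differences ran from 0.17 for Hspa8 to 0.89 for Hspb1, with a median of 0.38. Those called were Hspb1, Hspa5, Hsp90aa1, Dnajb1, Dnaja1, Hsph1 and Chordc1, and those not called were Hspa8 and Hspd1. Dnaja1 was called on the brighter of its probe sets, and the dimmer one differed by -0.041. Beside genes of like signal, 8 of 9 lay above the median and 5 (Hspb1, Hspa5, Hsp90aa1, Dnajb1 and Chordc1) above the upper quartile. The number called rests on single arrays: it was 3 without control replicate 2 (Hspb1, Hspa5 and Hsp90aa1), 0 without MPTP replicate 1 and 2 without MPTP replicate 2 (Hspb1 and Hspa5), while the share of all genes called in either direction was 4.25%, 0.431% and 1.21% and the median of the members was 0.35, 0.39 and 0.37. After cyclic loess 4 passed (Hspb1, Hspa5, Hsp90aa1 and Dnajb1) with a median of 0.22. Without control replicate 2 and acupoint replicate 1, which had more muscle signal than their partners, the median of the members was 0.35. Control was then a single array, and its muscle mean of 7.48 was still above the 5.56 to 5.94 of the treated arrays kept. That fit therefore does not remove the muscle difference from control.

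**Figure D1:**
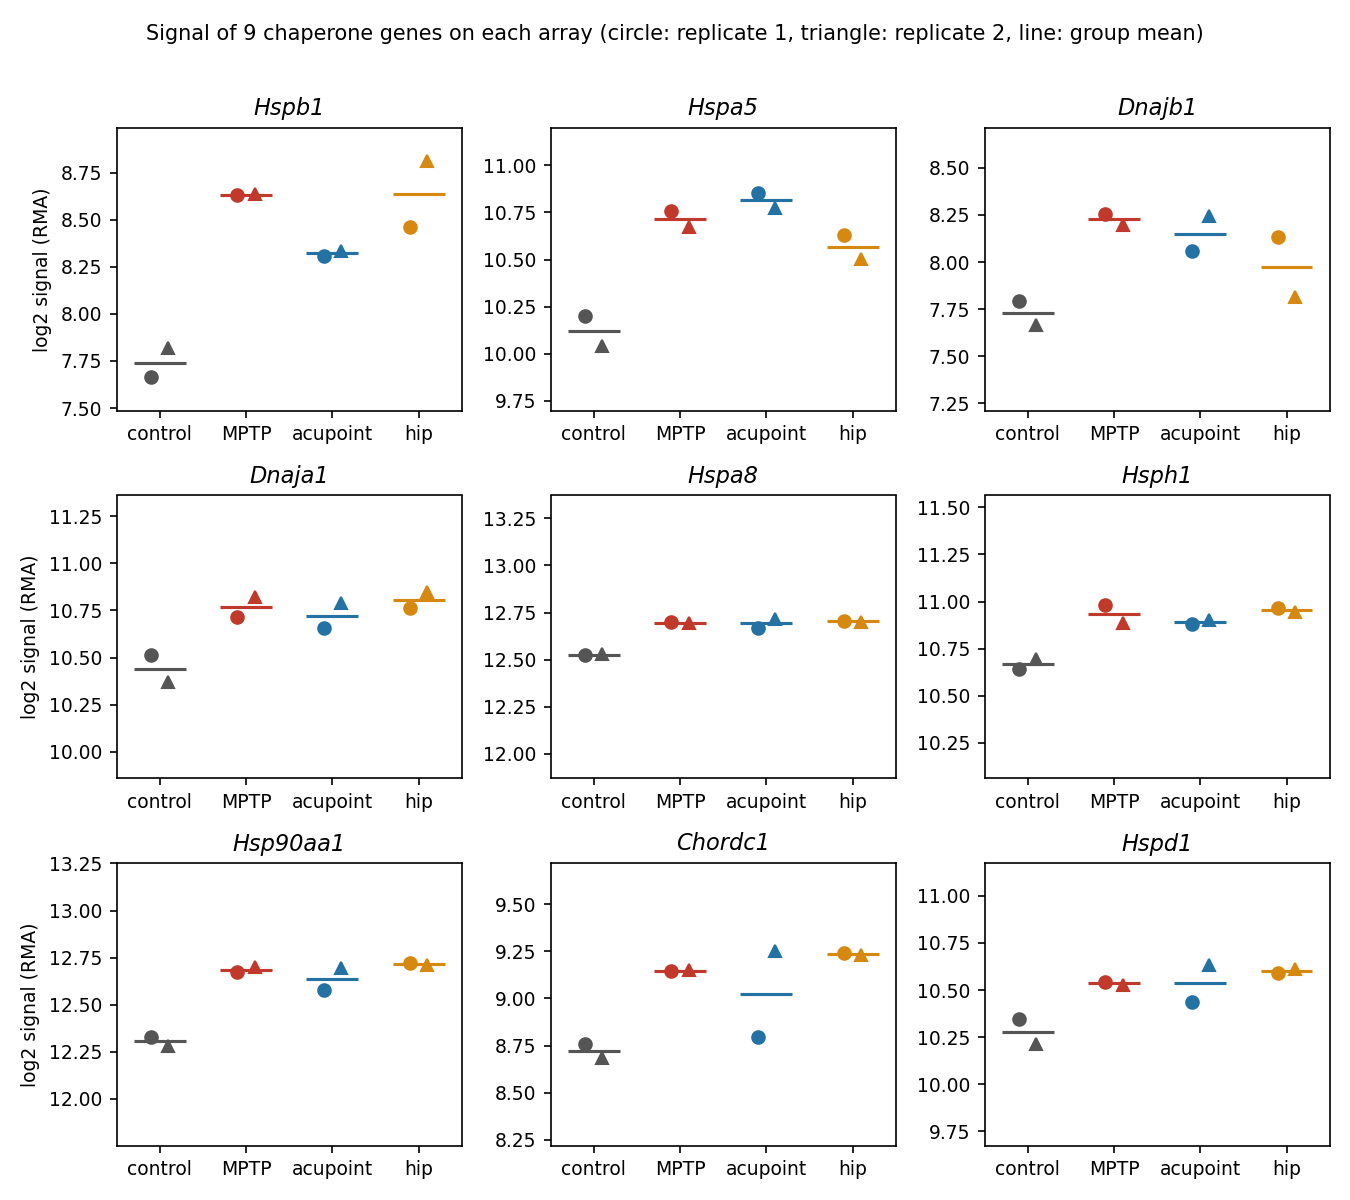
Log2 signal (RMA, vertical axis) of the 9 chaperone genes in each of the 8 samples, by group, with circles for replicate 1, triangles for replicate 2 and lines for group means. Hspb1 lies at 7.66 and 7.82 in control and 8.31 to 8.81 in treated samples, and Chordc1 in acupoint replicate 1 (8.80) lies near its control values.

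Hspb1 (HSP27), a small heat shock protein of motor and sensory neurons and of reactive astrocytes, had the largest difference of the 9. Its log2 signal was 7.66 and 7.82 in control, 8.63 and 8.63 in MPTP, 8.31 and 8.33 in acupoint and 8.46 and 8.81 in hip samples. Every treated sample was above both control samples, and both acupoint samples were below all other treated ones. It rose 1.85-fold after MPTP (log2 0.89, SE 0.12, limma adjusted p = 0.00347), where 1404 genes of like signal had a median of 0.16 and an upper quartile of 0.35. Its second probe set, not used above, gave 7.55 and 7.64 in control and 8.51 and 8.53 in MPTP samples. The call held in 19 of 20 alternatives and was lost without MPTP replicate 1 (adjusted p = 0.0551, the highest over these alternatives, of which the lowest was 0.000511).

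Of 8 other small heat shock proteins measured, 1 was called upward after MPTP, beside 13.7% of all genes, and 0 downward, and their median was -0.26, beside 0.061 over all genes. The one called was Hspb8, which works with Bag3 in selective autophagy (log2 0.37, SE 0.10, adjusted p = 0.0344). The abundant crystallin Cryab was at 0.022, SE 0.084. Hspb6, found in muscle, read 8.17 in control replicate 2, the sample with the highest muscle mean, and 7.30 to 7.54 in the other 7. Hspb2, Hspb3, Hspb7, Hspb11 and Cryaa were dim, at 6.21 or lower in every sample. Genes of like signal were not set beside this list, and the part of signal level and of muscle in its median was not tested. Of 3 heat shock transcription factor genes and regulators measured (Hsf2, Hsf4 and Hsbp1), 0 were called (limma), beside 13.7% of all genes upward and 3.1% downward. A count over so few genes cannot be told apart from those shares. Hsf1 was not analysed here. Genes named in this paragraph other than Hspb8 were chosen after their values were seen.

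Hspa5 (BiP), the HSP70 of the ER, had the next largest difference. Its signal was 10.20 and 10.04 in control, 10.76 and 10.67 in MPTP, 10.85 and 10.78 in acupoint and 10.63 and 10.50 in hip samples. Groups followed the order control, hip, MPTP, acupoint, with no overlap between neighbours. It rose 1.51-fold after MPTP (log2 0.59, SE 0.082, adjusted p = 0.00379), where 273 genes of like signal had a median of 0.23 and an upper quartile of 0.39. The call held in 19 of 20 alternatives and was lost without MPTP replicate 1 (adjusted p = 0.0646, the highest over these alternatives, of which the lowest was 0.000485).

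Of 31 ER chaperones and genes of the unfolded protein response measured, 10 were called upward after MPTP, beside 13.7% of all genes, and 0 downward, with a median of 0.21. The 4 with the smallest p were Canx, the lectin chaperone calnexin (log2 0.58, SE 0.074), Sel1l, a subunit of the ER degradation complex (0.53, SE 0.068), Hyou1, the HSP110 of the ER (0.61, SE 0.081), and Dnajc3, a J-domain partner of Hspa5 (0.57, SE 0.084). Hsp90b1, the HSP90 of the ER, rose by 0.29 (SE 0.080, adjusted p = 0.0379), and Herpud1, an ER degradation factor, by 0.43 (SE 0.088, adjusted p = 0.0121). Others on the list did not pass after MPTP. Ddit3 (CHOP), the transcription factor of prolonged ER stress, was at 0.21, SE 0.13. Xbp1, the transcription factor spliced by IRE1, was at 0.24, SE 0.081 (adjusted p = 0.0693), Pdia4 at 0.28, SE 0.087 (adjusted p = 0.0561), Calr at 0.095, SE 0.079, Sdf2l1 at -0.078, SE 0.12, Creld2 at -0.10, SE 0.093 and Trib3 at -0.38, SE 0.16. Over the mean of the 3 MPTP groups Xbp1 (log2 0.26, adjusted p = 0.0202) and Pdia4 (0.31, adjusted p = 0.013) were called, and the other 5 of these genes were not. Hsp90b1, Herpud1 and these 7 genes were chosen after their values were seen.

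In the cytosolic HSP70 system the partners Dnajb1, Dnaja1 and Hsph1 were called higher after MPTP and the constitutive chaperone Hspa8 was not, a contrast between genes that was not tested. Hspa8 (HSC70), the HSP70 that cells make at all times, read 12.53 and 12.53 in control, 12.70 and 12.69 in MPTP, 12.67 and 12.72 in acupoint and 12.71 and 12.70 in hip samples. Control and treated samples did not overlap, yet the difference after MPTP was small and not called (log2 0.17, SE 0.056, adjusted p = 0.0707), below the median of 0.20 of 18 genes of like signal. After cyclic loess it was 0.0097. Its other probe sets gave 0.18 and 0.21. Hspa8 has near-identical copies elsewhere in the genome, and whether its probes read them was not tested. Hspb1, Hsp90aa1, Dnaja1 and Hspd1 are the other members with several probe sets. For each of these the brightest was used, and whether it reads the named gene or a copy of it was not tested either. Hspa1a, the heat-inducible HSP70, read 6.68 and 6.46 in control and 6.69 and 6.68 in MPTP samples (log2 0.12, SE 0.12, adjusted p = 0.568) and was chosen after its values were seen. Its near-identical neighbour Hspa1b was not analysed here, and whether probes are shared by the pair was not tested.

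Dnajb1 (HSP40), a stress-inducible J-domain protein, read 7.79 and 7.67 in control, 8.26 and 8.20 in MPTP, 8.06 and 8.24 in acupoint and 8.13 and 7.81 in hip samples. Hip replicate 2 lay just above control replicate 1, and the hip samples were farther apart than those of any other group. It rose by 0.50 after MPTP (SE 0.12, adjusted p = 0.023), where 1547 genes of like signal had a median of 0.15. Dnaja1, a farnesylated J-domain protein that serves HSC70, read 10.51 and 10.37 in control, 10.71 and 10.82 in MPTP, 10.65 and 10.79 in acupoint and 10.76 and 10.85 in hip samples. Control samples were below all treated ones, and it rose by 0.33 after MPTP (SE 0.082, adjusted p = 0.0255). That lay between the median of 0.22 and the upper quartile of 0.40 of 255 genes of like signal. The calls of Dnajb1 and Dnaja1 were both lost without control replicate 2, without MPTP replicate 1 and without MPTP replicate 2. The second, dimmer Dnaja1 probe set disagreed, with 9.38 and 9.31 in control and 9.15 and 9.45 in MPTP samples (difference -0.041), and with both averaged the gene did not pass. Hsph1 (HSP110), the nucleotide exchange factor of HSP70, read 10.64 and 10.70 in control, 10.98 and 10.88 in MPTP, 10.88 and 10.90 in acupoint and 10.97 and 10.94 in hip samples. It rose by 0.26 after MPTP (SE 0.066, adjusted p = 0.0255), close to the median of 0.22 of 215 genes of like signal, and was called in 2 of the 8 fits that left out 1 array, those without an acupoint array.

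Of 11 other HSP70 and HSP110 genes, 6 were called upward after MPTP, beside 13.7% of all genes, and 0 downward (median 0.31). Hspa13 (STCH), a microsomal HSP70 relative, rose 2.05-fold (log2 1.04, SE 0.13, adjusted p = 0.00272), a larger difference than any of the 9, and read 8.57 and 8.27 in control, 9.45 and 9.47 in MPTP, 9.16 and 9.47 in acupoint and 9.43 and 9.28 in hip samples. Hspa12a, a distant HSP70 relative, rose by 0.64 (SE 0.071, adjusted p = 0.00232). Hyou1, which is also on this list, and the HSP110 gene Hspa4 (0.33, SE 0.068) complete the 4 with the smallest p. Of 19 other J-domain genes 3 were called upward, Dnajc18 (0.55, SE 0.094), Dnajc16 (0.44, SE 0.082) and the mitochondrial Dnaja3 (0.32, SE 0.085), and 0 downward (median 0.11), again beside 13.7% called upward among all genes. Of 8 nucleotide exchange and BAG genes 2 were called upward, Sil1, the exchange factor of Hspa5 (0.56, SE 0.087), and Bag5 (0.41, SE 0.12), and 0 downward (median 0.17), with the same background of 13.7%. The calls of Hspb8, Dnaja3 and Bag5 held in 10, 10 and 11 of 20 alternatives and in 2 of the 8 that left out 1 array, for each of these genes, and those of Hspa13 and Hspa12a in all 20. Bag3, an HSF1 target, was at -0.11, SE 0.099 and was chosen after its value was seen.

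In the HSP90 branch both Hsp90aa1 and Chordc1 were called higher after MPTP. Hsp90aa1, the stress-inducible cytosolic HSP90, read 12.33 and 12.28 in control, 12.67 and 12.70 in MPTP, 12.58 and 12.70 in acupoint and 12.72 and 12.71 in hip samples. Acupoint replicate 1 was the lowest treated sample, still above both control samples. It rose 1.30-fold after MPTP (log2 0.38, SE 0.063, adjusted p = 0.00654), where 19 genes of like signal had a median of 0.24 and an upper quartile of 0.35, and its other probe sets gave 0.29 and 0.43. The call was lost without MPTP replicate 1 and without MPTP replicate 2. Chordc1, an HSP90 co-chaperone with zinc-binding CHORD domains, read 8.76 and 8.68 in control, 9.14 and 9.15 in MPTP, 8.80 and 9.25 in acupoint and 9.24 and 9.23 in hip samples. Acupoint replicate 1 lay near control while the other 5 treated samples lay together. It rose by 0.43 after MPTP (SE 0.13, adjusted p = 0.0487) and, like Hsph1, was called in 2 of the 8 fits that left out 1 array. For Chordc1, 965 genes of like signal had a median of 0.19 and an upper quartile of 0.37. Of 19 other HSP90 co-chaperones 8 were called upward and 0 downward (median 0.25), beside 13.7% upward among all genes. By smallest p they were St13, which bridges HSP70 and HSP90 (0.44, SE 0.077), the glucocorticoid-induced immunophilin Fkbp5 (0.84, SE 0.15), Sugt1 (0.50, SE 0.10) and Cdc37, which brings kinases to HSP90 (0.74, SE 0.17). Fkbp5 read 7.20 and 7.10 in control, 8.02 and 7.96 in MPTP, 7.57 and 8.02 in acupoint and 8.35 and 8.66 in hip samples, so acupoint replicate 1 was again the lowest treated sample.

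Hspd1 (HSP60), the mitochondrial chaperonin, read 10.34 and 10.21 in control, 10.54 and 10.53 in MPTP, 10.44 and 10.63 in acupoint and 10.59 and 10.61 in hip samples. Its difference after MPTP was 0.26 (SE 0.083, adjusted p = 0.0626), which did not pass and lay near the median of 0.24 of 301 genes of like signal, and its second probe set gave 0.38. Hspe1 (HSP10), the lid of the chaperonin, whose gene is the head-to-head neighbour of Hspd1, read 10.27 and 10.34 in control and 10.10 and 10.12 in MPTP samples (log2 -0.20, SE 0.14, adjusted p = 0.388) and was chosen after its values were seen. Of 15 mitochondrial chaperones and proteases 5 were called upward, beside 13.7% of all genes, and 0 downward (median 0.20). By smallest p they included the mitochondrial HSP70 Hspa9 (0.31, SE 0.067), the mitochondrial HSP90 Trap1 (0.51, SE 0.12), the protease subunit Afg3l2 (0.33, SE 0.081, called in 14 of 20 alternatives) and again Dnaja3. Chaperonin and prefoldin genes of the cytosol, which fold actin and tubulin, had 3 of 14 called upward, beside 13.7% of all genes, and 0 downward (median 0.23), the subunits Cct6a (0.48, SE 0.086), Cct8 (0.37, SE 0.067) and Cct2 (0.63, SE 0.12). With each gene counted once, 125 genes of these lists were measured, 35 were called upward and 0 downward after MPTP, where 13.7% and 3.1% of all genes were, and the median was 0.19. Genes of like signal were not set beside these other lists. For the 9 members such genes had medians of 0.15 to 0.24, and the part of signal level in the list counts and medians was not tested. Over the mean of the 3 MPTP groups 47 were called upward, beside 19.9% of all genes, and 1 downward, Dnajc13 (log2 -0.29, SE 0.079), which was chosen after its value was seen.

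**Figure D2:**
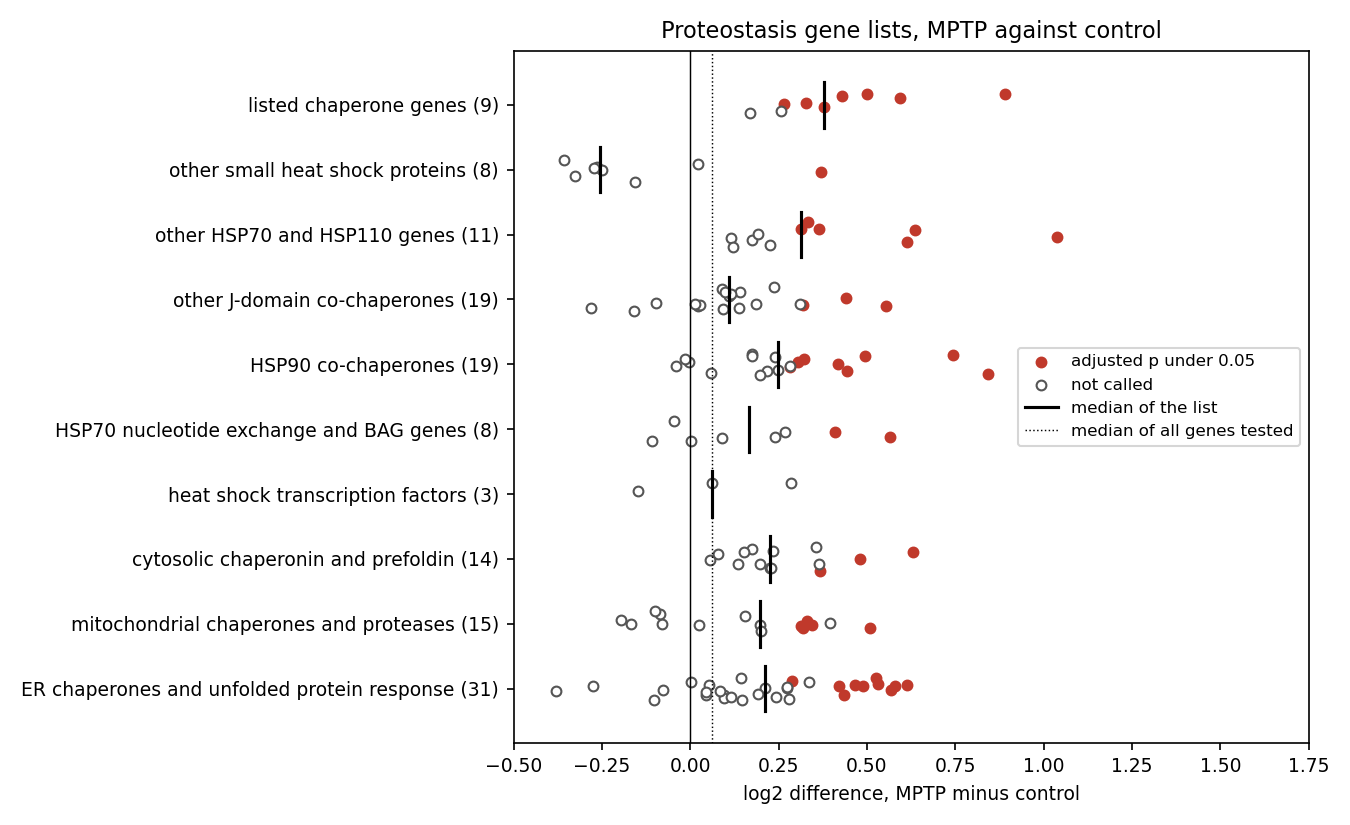
Log2 difference between MPTP and control (horizontal axis) of each gene of the listed chaperones and of 9 other lists, with filled points past an adjusted p of 0.05 and bars at list medians. The listed genes have a median of 0.38 and the other small heat shock proteins one of -0.26, against 0.061 for all genes. The lists differ in signal level and were not matched for it.

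Each MPTP group was also set against control. These comparisons share the control samples and are given side by side, in the order MPTP, acupoint and hip. Hspb1 was at 0.89, 0.58 and 0.89, Hspa5 at 0.59, 0.69 and 0.44, and Hsp90aa1 at 0.38, 0.33 and 0.41, each called in every group. Dnajb1 was at 0.50, 0.42 and 0.24, called in the MPTP group and not in the acupoint (adjusted p = 0.0521) or hip group (adjusted p = 0.191). In the acupoint group 3 of 9 members were called upward, where 9.55% of all genes were, and in the hip group 7 of 9, where 15.4% were. Without control replicate 2 these counts were 1 and 2, in fits that called 1.55% and 6.2% of all genes in either direction. The acupoint count was 9 without acupoint replicate 1 (23.3% of all genes), and the hip count was 1 without hip replicate 1 (2.41%) and 3 without hip replicate 2 (6.87%). Over the mean of the 3 MPTP groups all 9 were called upward, where 19.9% of all genes were, from 0.17 for Hspa8 to 0.79 for Hspb1. The number called by limma was 5 without control replicate 1, where 17.5% of all genes were called in either direction, and 4 without control replicate 2 (Hspb1, Hspa5, Hsp90aa1 and Hsph1), where 8.76% were. In all 9 the 6 treated samples lay above both control samples, as in 26.1% of all genes. An F-test over the 4 groups called Hspb1, Hspa5 and Hsp90aa1, where 10.8% of all genes were called, with 0 members without control replicate 2 (0.125% of all genes), 9 without acupoint replicate 1 (22.3%) and 8 without acupoint replicate 2 (25.1%).

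**Figure D3:**
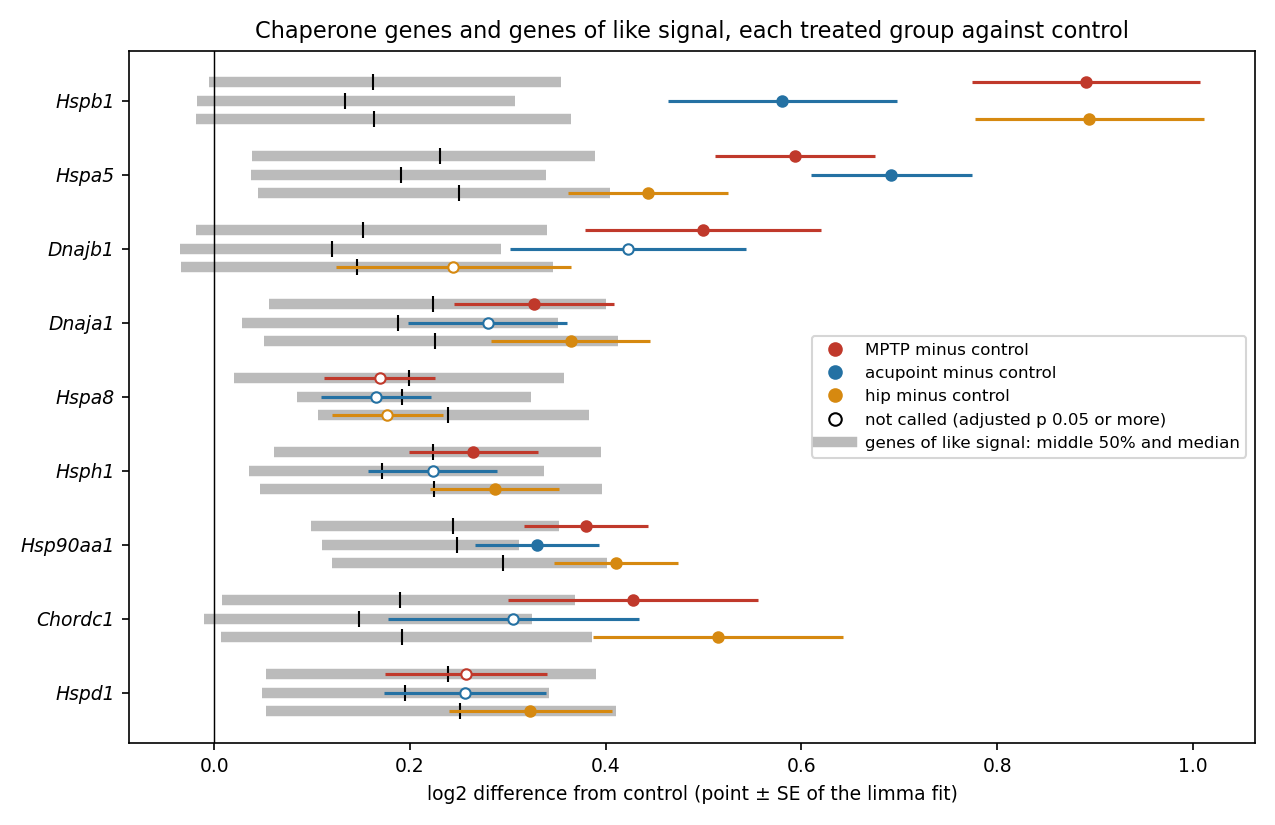
Log2 difference from control (horizontal axis, points ± SE) of the 9 genes in the MPTP, acupoint and hip groups, open where not called, with grey bars for the interquartile range of genes of like signal and ticks at their medians. Hspb1, Hspa5 and, by a small margin, Hsp90aa1 lie right of the grey bar in all 3 groups, and Hspa8 lies left of the tick in all 3.

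Needling was then compared with MPTP alone in toxin-treated mice. After acupoint needling 0 of 9 members and 0 of all genes were called (limma), with 1 member, Hspb1, and 201 genes (1.25%) at an unadjusted p under 0.05. After hip needling 0 of 9 members and 0 of all genes were called (limma), with 0 members and 273 genes (1.7%) at that level. Hspb1 was at -0.31 after acupoint needling (95% confidence interval -0.57 to -0.048) and at 0.0035 after hip needling (-0.26 to 0.27). Both acupoint samples lay below both MPTP samples. Hspa5 was at 0.099 (-0.086 to 0.28) and -0.15 (-0.33 to 0.034), without overlap in either comparison. Dnajb1 was at -0.077 (-0.35 to 0.19) and -0.25 (-0.53 to 0.017). The other 6 members were at -0.12 to -0.0012 after acupoint and 0.0080 to 0.087 after hip needling. Samples of members failed to overlap upward in 1 and downward in 1 of 9 after acupoint needling (all genes 12.3% and 11.9%), and in 4 and 2 of 9 after hip needling (17.1% and 19.2%). The interval of Chordc1 after acupoint needling was wide (-0.41 to 0.17), and that of Hspa8 narrow (-0.13 to 0.12).

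**Figure D4:**
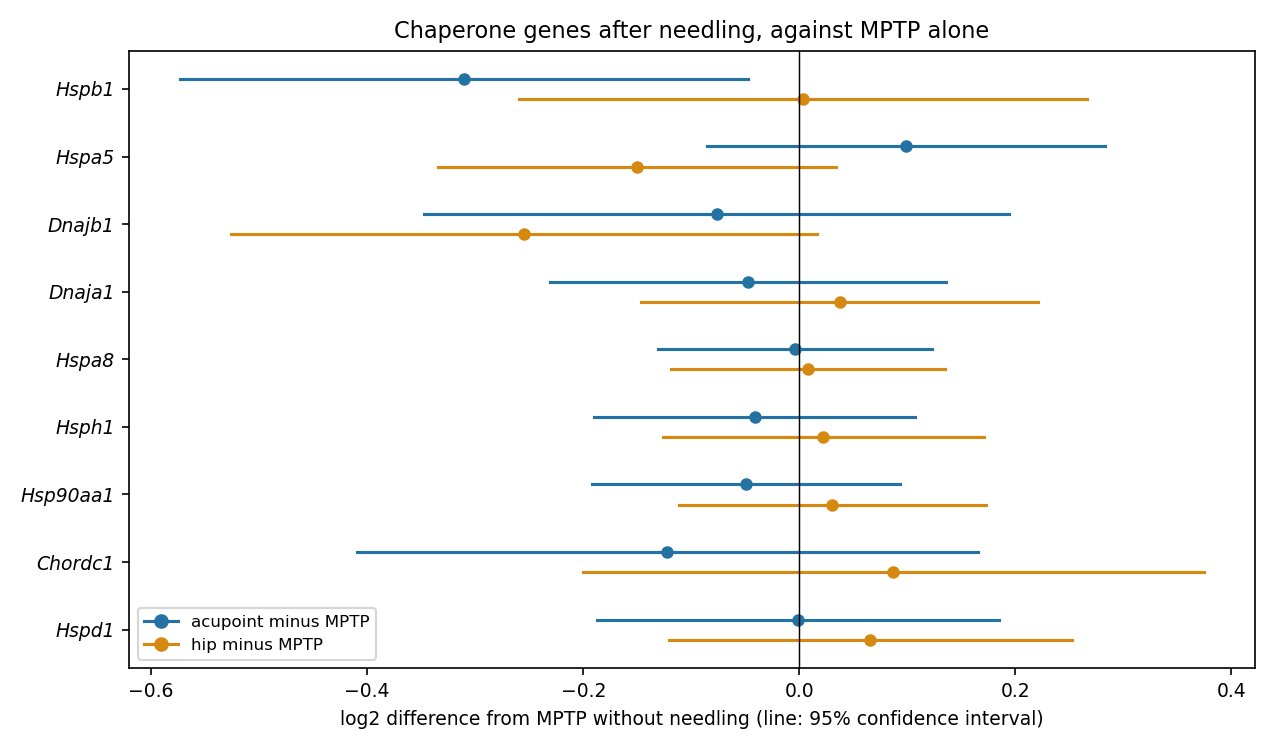
Log2 difference from MPTP without needling (horizontal axis, with 95% confidence intervals) of the 9 genes after acupoint and hip needling. The interval of Hspb1 after acupoint needling lies below 0 before adjustment (-0.57 to -0.048), and the others include 0.

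Compared directly, acupoint and hip needling gave 0 of 9 members and 0 of all genes called (limma), with 2 members and 604 genes (3.77%) at an unadjusted p under 0.05. In acupoint minus hip Hspb1 was at -0.31 (-0.58 to -0.051) and Hspa5 at 0.25 (0.065 to 0.43), each without overlap and with an adjusted p of 0.936. Samples of the sites did not overlap upward in 1 and downward in 3 of 9 members, as in 15.2% and 13.1% of all genes. Dnajb1 was at 0.18 (-0.093 to 0.45) and Chordc1 at -0.21 (-0.50 to 0.078). Chordc1 was called without acupoint replicate 2 (-0.44, adjusted p = 0.0252, over alternatives that reach 1) and was at 0.019 without acupoint replicate 1. The fit with that call called 622 genes in all (3.88%), against 0 with all arrays, and assumes that the lone acupoint sample varies like those of the other groups. Acupoint replicate 1 was the lowest of the 6 treated samples for 7 of 9 members (all but Hspa5 and Dnajb1) and the highest for Hspa5, and its muscle marker mean (6.99) was the highest among treated samples. Its means of Schwann cell and peripheral nerve markers (7.82) and of meningeal fibroblast markers (8.59) were also the highest among treated samples. The part of these tissues in these values was not tested.

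Likeness in pattern was measured as the root mean square distance between log2 values over the 8 samples, each gene centred on its own mean. The closest members were Hsp90aa1 and Dnaja1 (0.044), Dnaja1 and Hspd1 (0.046) and Hspa8 and Hsph1 (0.051). Outside the lists the genes nearest to Hspb1 were the mitochondrial phosphodiesterase Pde12 (0.10), Fam107a (0.11) and the ferroxidase Heph (0.11). Pde12 read 6.23 and 6.41 in control, 7.12 and 7.07 in MPTP, 6.95 and 7.06 in acupoint and 7.15 and 7.26 in hip samples. Nearest to Hspa5 were the serotonin receptor Htr1a (0.041), the small GTPase Diras2 (0.045) and the neuronal kinase Camk2a (0.052). Htr1a read 6.41 and 6.21 in control, 6.92 and 6.89 in MPTP, 6.94 and 6.96 in acupoint and 6.77 and 6.62 in hip samples. Its order of groups was that of Hspa5, which largely follows from its choice as the nearest gene over these same samples.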

How the data were processed

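Values are log2 signals of 35557 probe sets that the authors deposited, made with Affymetrix Expression Console and RMA per the submitters' processing notes, from 300 ng of RNA per the labels' protocols. Versions are not given in the sources used here, and log base 2 was inferred from the value range. The deposited values hold no signal over background and still differ in distribution between arrays, and the number of arrays limits the precision. The platform annotation gave 21789 probe sets 1 symbol, 1621 several and 12147 none. One-symbol probe sets with a mean over 4.30 (30th percentile) entered, the highest per gene.

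Group means over 8 arrays were fitted with limma 3.58.1 in R 4.3.3 (eBayes with trend, 4 residual and 5.34 prior degrees of freedom, two-sided), with Benjamini-Hochberg adjustment over 16026 genes per contrast, and the code was tested on simulated data. Members, lists and tests were chosen with earlier results of these data known. The naming rule took every member, up to 4 called genes per other list by smallest p, and the 3 genes nearest to Hspb1 and to Hspa5. Same-numbered samples did not vary together in a steady way (correlations -0.33 to 0.17 over 6 pairs of groups, 2 of them over 0.1), so none were paired. The negative values mean that samples of unlike number varied together in part, and the main fit treats the arrays as independent. Alternatives covered scaling, filter, moderation, probe sets, a replicate block and each array left out. Proteins were not used here. Plots were drawn with matplotlib 3.10.9.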

Additional observations from a re-analysis of the deposited data

How the results depend on the processing

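With 2 arrays a group the number of calls moved between fits. All 9 members stayed above control in the 20 alternatives for MPTP and the 19 for the mean of the MPTP groups (the fit of only the 2 groups compared does not apply to that mean or to the F-test). The median of the members in MPTP minus control was 0.29 after quantile normalization again, 0.22 after cyclic loess and 0.54 with arrays centred on their medians, where all genes had medians of 0.10, 0.037 and 0.22 (as deposited 0.061), so relative to all genes it was 0.18, 0.18 and 0.32 (as deposited 0.32). For the mean of the MPTP groups the same medians were 0.27, 0.22 and 0.53. After cyclic loess 4 members were called in MPTP minus control, 5 for the mean of the MPTP groups and 3 in hip minus control, and with eBayes without trend 4 in MPTP and 4 in hip minus control. In acupoint minus control 8 were called with arrays centred, 6 with the filter at the 50th percentile, 1 with only the 2 groups compared and 8 without control replicate 2 and acupoint replicate 1. The F-test called 9 with centring, 5 with that filter, 8 with array weights and 8 without those 2 arrays. With the replicate block 6 members were called in MPTP minus control (Chordc1 was lost), and the counts for the other comparisons with control did not change. Leaving out 1 array gave 0 to 9 called members in MPTP, 4 to 9 for the mean of the MPTP groups, 1 to 9 in acupoint and 1 to 8 in hip minus control, 0 to 9 in the F-test and 0 to 1 in acupoint minus hip. The median of the members in acupoint minus MPTP (-0.048) was -0.11 to 0.019 with 1 array left out and 0.019 without control replicate 2 and acupoint replicate 1. The causes were not tested.

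In all 40 values of single members changed sign, 0 of them called. One was against control, Hspa8 in hip minus control at -0.0023 after cyclic loess. After quantile normalization again they were Hsph1 0.0039, Hspd1 0.036 in acupoint minus MPTP and Hspb1 -0.0075, Hspa8 -0.045, Hsp90aa1 -0.0029 in hip minus MPTP and Hspa8 0.040, Hspd1 0.0013 in acupoint minus hip. After cyclic loess they were Hspa8 0.038, Hspd1 0.036 in acupoint minus MPTP and Hspb1 -0.0016, Hspa8 -0.012 in hip minus MPTP and Hspa8 0.050 in acupoint minus hip. With a gene's probe sets averaged they were Hspb1 -0.014, Dnaja1 -0.033 in hip minus MPTP. Without control replicate 2 and acupoint replicate 1 they were Hspa8 0.021, Hsp90aa1 0.0098, Dnajb1 0.015, Dnaja1 0.019, Chordc1 0.11, Hspd1 0.098 in acupoint minus MPTP and Hspa8 0.013, Chordc1 0.019, Hspd1 0.033 in acupoint minus hip. With 1 array left out the ranges across zero were Chordc1 -0.35 to 0.11, Dnaja1 -0.11 to 0.019, Dnajb1 -0.17 to 0.015, Hsp90aa1 -0.11 to 0.0098, Hspa8 -0.028 to 0.021, Hspd1 -0.10 to 0.098, Hsph1 -0.091 to 0.0084 in acupoint minus MPTP, Dnaja1 -0.017 to 0.091, Hspb1 -0.17 to 0.18, Hsph1 -0.028 to 0.072 in hip minus MPTP and Chordc1 -0.44 to 0.019, Hspa8 -0.036 to 0.013, Hspd1 -0.17 to 0.033 in acupoint minus hip.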
